A study of Bos taurus and Bubalus bubalis with 9 samples.

Results

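Contraction of a skeletal muscle fibre starts with a signal at its surface membrane that is passed to the calcium store inside the fibre, and 37 genes for this step and for the membrane that carries it were followed here in the muscle of buffalo and cattle and in the adipose tissue of cattle. They were taken from a list of symbols and sorted into 5 roles, namely voltage sensor and release (7 genes), triad structure and sarcoplasmic reticulum lumen (9), calcium pumps, stores and kinases (9), dystrophin complex and membrane repair (8), and the ankyrin and spectrin skeleton (4). The measurements are circular RNAs (circRNAs), that is, transcripts in which a later exon end is spliced back to an earlier one, counted by the reads that cross this back-splice junction. A junction was kept where its host-gene symbol was on the list, which gave 164 of 10701 junctions in the buffalo table and 195 of 18535 in the cattle table. The buffalo table also holds adipose columns that were not used here, and 73 of its 164 junctions had a buffalo muscle read. Of the 37 genes, 22 had a junction in both tables, 4 (CASQ1, SGCA, SNTB1 and SPTB) had one in the cattle table alone, and BIN1 had one in the buffalo table alone. CAMK2G is among the 22 but had no buffalo muscle read. The other 10, CACNA1S, CASQ2, TRDN, ASPH, SRL, HRC, ORAI1, DMD, ANK1 and ANK2, had none in either table under these symbols.

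The 9 libraries came from Xinyang buffalo (Bubalus bubalis) and Nanyang cattle (Bos taurus), with 3 muscle libraries of buffalo labelled low IMF (intramuscular fat) and, labelled high IMF, 3 muscle and 3 adipose libraries of cattle. Every animal had been weaned at 3 months and castrated at 6 months, was fattened from 18 months on and was 30 months old at slaughter, so castration and fattening are shared by all groups. The 2 species were kept on different farms with like feeding. The labels name 3 cattle for the 6 cattle libraries, so the tissues appear to come from the same animals, but which adipose library belongs to which muscle library is not stated. The intramuscular fat label coincides with species and cannot be told apart from it.

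In a muscle fibre, depolarisation moves a voltage sensor, the L-type calcium channel CACNA1S with its accessory subunits, in the transverse tubule, and this opens the ryanodine receptor RYR1 in the adjoining sarcoplasmic reticulum. Junctophilins hold the membranes together in the triad, calsequestrin buffers the stored calcium, and SERCA pumps return it after each contraction. The dystrophin complex, spectrins and ankyrins tie the sarcolemma to the cytoskeleton and the extracellular matrix, and dysferlin takes part in resealing the membrane when it tears.

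The junction reads recovered per library numbered 4472 to 6122 for buffalo muscle, 15440 to 27141 for cattle muscle and 12042 to 21053 for cattle adipose tissue, out of library sizes of 35712276 to 65777231 reads. Expression is given as RPM, junction reads scaled to the size of the library, and 1 read was worth 0.0152 to 0.0280 RPM. The labels of the cattle tissues were checked against circRNAs of marker genes. Summed over the 11 of 14 skeletal muscle fibre markers with a junction, cattle muscle held 921 to 1410 reads and cattle adipose tissue 0 to 1, and NEB, the giant thin-filament protein nebulin, had 607, 968 and 691 reads against 0, 1 and 0. Over the 6 of 13 adipocyte markers with a junction, cattle muscle held 3 to 9 reads and adipose tissue 36 to 72. ADIPOQ, which defines adipocytes, had no junction in either tissue, and PPARG had 0, 0 and 3 reads in muscle and 17, 23 and 22 in adipose tissue. ACACA had 2 reads over the muscle libraries and 67 over the adipose libraries, and GPAM had 9 and 27 with overlap. FABP4 had 0 and 3, PLIN1 had 0 and 1, and LPL went the other way with 4 and 2. Summed markers of smooth muscle had 0 to 2 reads in muscle and 0 to 17 in adipose tissue, those of endothelium 5 to 8 and 0 to 9, of fibroblasts 0 to 3 and 4 to 8, and of macrophages 0 to 11 and 0 to 7. The part of any of these cells in the results was not tested. The coupling and sarcolemma genes together held 146, 215 and 215 junction reads in cattle muscle, 78, 119 and 78 in the adipose libraries, and 40, 54 and 45 in buffalo muscle. As a share of all junction reads this was 0.792% to 0.982% in cattle muscle, 0.551% to 0.648% in adipose tissue and 0.755% to 1.01% in buffalo muscle. The values of most genes rest on few reads.

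The comparison of cattle muscle with cattle adipose tissue asks which of these genes form circRNAs mainly in the contractile tissue. Reads of all junctions of a gene were summed, and 26 of the 37 genes had a cattle junction. All 26 had a read in muscle, and 14 had a read in adipose tissue. The 12 genes read in muscle alone make 46.2% of the 26, while 22.1% of all host genes in the table were read in muscle alone. At least 2 reads in at least 3 of the 6 libraries were required for the test, limma on log2(RPM + 0.1) with Benjamini-Hochberg adjustment over 1837 host genes, and 14 of the genes met this. ANK3, ATP2A2, RYR1 and DYSF passed the adjusted threshold of 0.05, and these 4 were higher in muscle. Among all genes tested, 5.23% were called higher in muscle and 1.63% higher in adipose tissue. No member was called higher in adipose tissue by limma, edgeR or DESeq2. By adjusted p, edgeR with TMM and DESeq2 each called 4 of the 14 higher in muscle. Over all 1837 genes, they called 121 and 89 higher in muscle, and 40 and 28 higher in adipose tissue. At an unadjusted p below 0.05 in limma, 7 of the 14 were higher in muscle and 0 in adipose tissue, beside 11.3% and 6.42% of all genes tested. By edgeR with TMM and by DESeq2, 5 were higher in muscle and 0 in adipose tissue at this threshold. Over all 1837 genes, 326 and 262 passed it in either direction by these tools. In RPM, 6 of the 14 had every muscle library above every adipose library and 0 the reverse, where 12.5% and 8.27% of all genes tested did so. ATP2A2 and RYR1 had no adipose read and met the read minimum through muscle alone, so their presence among the 14 already implies a difference. ANK3 and DYSF had 2 or more reads in only 1 and 2 adipose libraries, so they too met the minimum through muscle, and all 4 calls concern genes whose entry into the test was decided by the higher tissue. SGCD and DTNA, with 2 or more reads in only 1 adipose library each, also met it through muscle, while CACNA2D1 met it in both tissues. The counts at an unadjusted p and without overlap thus include genes that entered through the higher tissue, and they are a description. The median difference was 0.80 over the 14 genes and 0.02 over all 1837, on the log2(RPM + 0.1) scale, which understates the change of genes with few reads. Scaled by junction reads instead of library reads, the median over all genes moved to -0.18 and the calls over all genes from 96 higher and 30 lower in muscle to 84 and 82, while the same 4 members passed. In tissue pieces, fewer cells of a type and less RNA in each cell cannot be told apart.

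**Figure D1:**
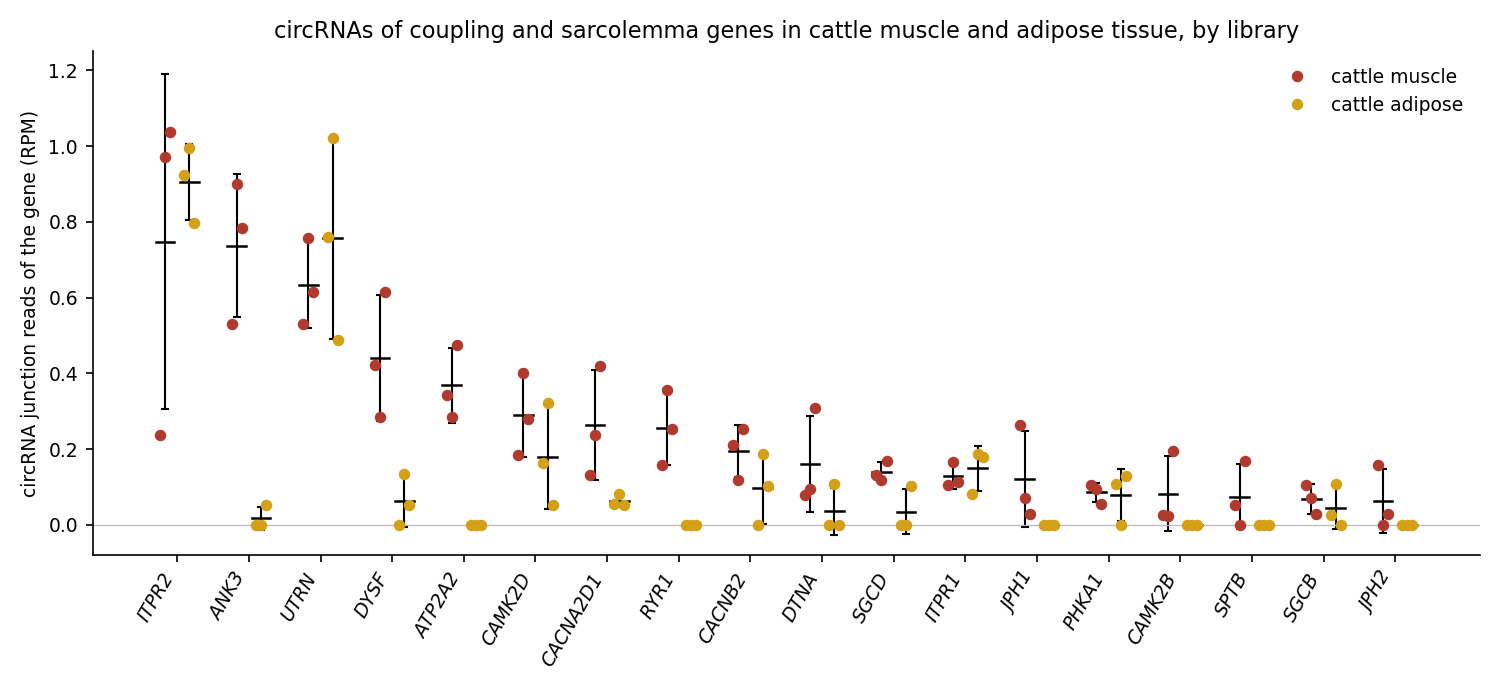
RPM of the summed circRNA junctions of 18 genes (the 14 tested and 4 more with at least 7 reads in muscle), with a point for each library, with cattle muscle in red and cattle adipose tissue in yellow. Black lines show the mean and SD of 3 libraries. ANK3, ATP2A2, RYR1 and DYSF lie above the adipose libraries in every muscle library, while the libraries of ITPR2 and UTRN overlap between the tissues.

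Among the genes of voltage sensing and release, RYR1, the calcium release channel itself, had 6, 15 and 9 junction reads in cattle muscle 1 to 3 and none in the 3 adipose libraries. Every muscle library was thus above every adipose library. The muscle level was 0.255 ± 0.098 RPM (SD, n = 3). Pooled over the 3 libraries it was 0.259 RPM, at least 9.75-fold higher than adipose tissue set to 3 reads over the group (0.0266 RPM), and the lower bounds given for other genes and junctions were likewise made from pooled reads. The difference was 1.79 ± 0.41 (SE) on the log2(RPM + 0.1) scale with an adjusted p of 0.00624 by limma. It passed under 13 of 16 alternative settings, over which the adjusted p ran from 0.000684 to 0.0610, and the call was lost without cattle muscle 2 (0.0541), without cattle muscle 3 (0.0610) and with a pseudocount of 1 (0.0584). RYR1 reads were spread over 12 junctions in cattle muscle, and 7 of these had 1 read. Its leading junction, chr18:48592200-48592699 (UMD3.1, plus strand, exonic, 500 bases), held 11 of the 30 reads, with 1, 7 and 3 per library.

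CACNA2D1, the alpha-2/delta subunit of the calcium channel, had 5, 10 and 15 reads in muscle and 2, 3 and 2 in adipose tissue. The groups did not overlap, but the difference of 1.09 ± 0.42 did not pass (adjusted p = 0.143 by limma). CACNB2, a beta subunit known mainly from the heart channel, had 8, 5 and 9 reads in muscle and 0, 7 and 4 in adipose tissue, with overlapping groups and a difference of 0.68 ± 0.44 (adjusted p = 0.480 by limma). The skeletal muscle subunit CACNB1, the adaptor STAC3, which couples the channel to RYR1, and the muscle sodium channel SCN4A each had 1 read in cattle muscle and none in adipose tissue, which is too few for a comparison.

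Of the genes of triad structure, none reached the read minimum. JPH1, the main junctophilin of skeletal muscle, had 10, 3 and 1 reads in cattle muscle and none in adipose tissue, at least 4.55-fold higher against the limit of 3 reads. JPH2 had 6, 0 and 1 reads in muscle and none in adipose tissue, all in chr13:73349344-73350124, and CASQ1, calsequestrin of the fast fibre, had 1 read in cattle muscle 3. For both junctophilins cattle muscle 1 held most of the reads, and without this library the bound for JPH1 would be much lower. The triad genes together had 3 to 16 reads per muscle library and 0 in each adipose library.

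Among the pumps, stores and kinases, ATP2A2, which encodes the SERCA2 pump of slow fibres and other cells, had 13, 12 and 17 reads in cattle muscle and none in adipose tissue. Its level was 0.368 ± 0.098 RPM, or 0.363 RPM pooled, which is at least 13.6-fold higher than in adipose tissue, and the difference of 2.21 ± 0.40 passed in limma (adjusted p = 0.000773) and under all 15 alternatives that tested it, with adjusted p-values from 1.2e-05 to 0.0242. The gene is almost a single-junction host in cattle. Of its 42 muscle reads, 39 (92.9%, exact 95% interval 80.5% to 98.5%) crossed chr17:56467433-56471190 (plus strand, exonic, 3758 bases), with 13, 9 and 17 per library. With no adipose read, that junction met the read minimum through muscle alone, so its entry into the test already implies a difference. It passed on its own (2.11 ± 0.35, adjusted p = 0.00270 by limma over 1917 junctions), where 5.53% of all junctions tested were called higher in muscle and 0.887% higher in adipose tissue. The interval covers counting error only, since reads that PCR copied from 1 molecule were not told apart.

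The other genes of this role did not pass. The IP3 receptors, calcium release channels of the endoplasmic reticulum in many cell types, overlapped between the tissues. ITPR2 had 9, 41 and 37 reads in muscle and 34, 37 and 31 in adipose tissue, and cattle muscle 1 was the lowest of the 6. Its difference was -0.43 ± 0.46 (95% interval -1.38 to 0.52), and ITPR1, with 4, 7 and 4 against 3, 7 and 7 reads, gave -0.11 ± 0.41 (-0.95 to 0.73). CAMK2D, a calcium/calmodulin-dependent kinase, had 7, 17 and 10 reads in muscle and 6, 12 and 2 in adipose tissue (0.56 ± 0.44, adjusted p = 0.589 by limma). PHKA1, the muscle alpha subunit of phosphorylase kinase, had 4, 4 and 2 against 4, 0 and 5 reads, with a difference of 0.13 ± 0.43 (-0.75 to 1.01). CAMK2B had 1, 1 and 7 reads in muscle and none in adipose tissue, so it was read in every muscle library, but cattle muscle 3 held most of it. CAMK2G had 5 muscle reads and 1 adipose read, and STIM1, the calcium sensor of the store, had 2 and 1.

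**Figure D2:**
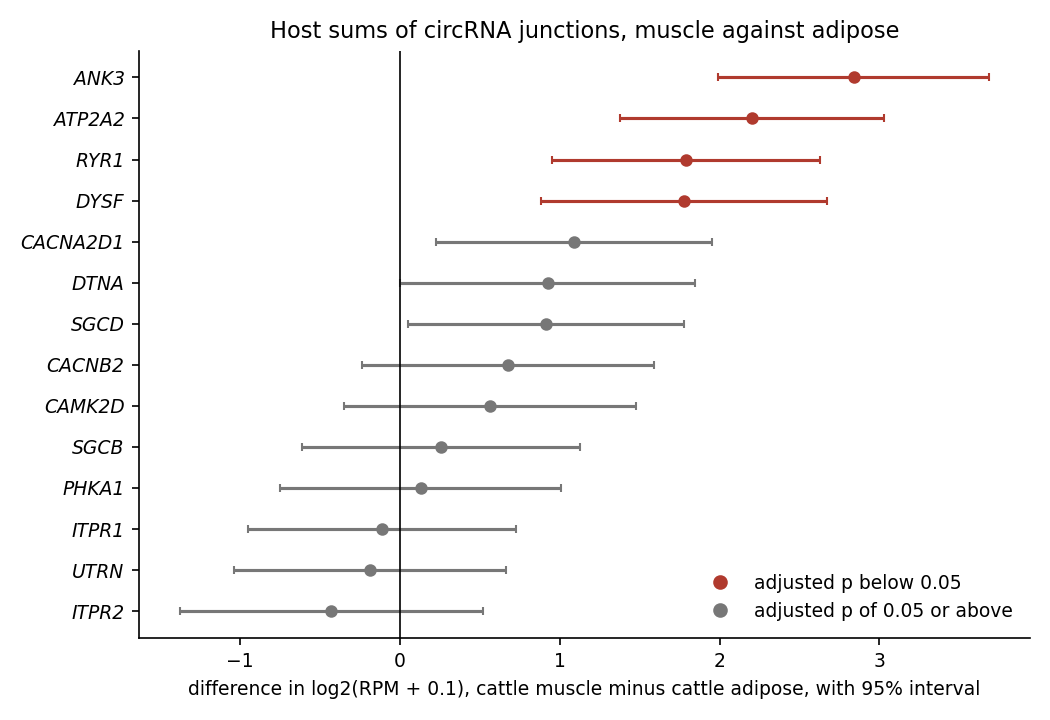
Difference in log2(RPM + 0.1) between cattle muscle and cattle adipose tissue for the 14 genes tested, with the 95% interval from limma (3 libraries a group). Red marks the 4 genes with an adjusted p below 0.05. The estimates run from 2.84 for ANK3 to -0.43 for ITPR2.

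In the dystrophin complex and membrane repair, DYSF, which encodes dysferlin, had 16, 12 and 22 reads in cattle muscle and 0, 5 and 2 in adipose tissue, without overlap, and met the read minimum through muscle. Over the group this is a ratio of 6.96 (exact 95% interval 3.14 to 18.2, counting error only), and the difference was 1.78 ± 0.43 with an adjusted p of 0.0105 by limma. The call was lost under 5 of 16 alternatives, namely without cattle muscle 1 (0.0515), without cattle muscle 3 (0.141), without cattle adipose 1 (0.104), with no filter (0.0591) and with a pseudocount of 1 (0.0645), over a range of 0.00247 to 0.141. DYSF reads lay in 13 junctions in muscle. The leading junction, chr11:13043860-13046748 (minus strand, exonic), had 5, 1 and 11 reads in muscle and 0, 1 and 0 in adipose tissue, and chr11:12963089-12965183 had 1, 8 and 3 against 0, 0 and 1, so that different junctions led in different muscle libraries.

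UTRN, the dystrophin homologue utrophin found in many tissues, was not called. It had 20, 32 and 22 reads in muscle and 28, 38 and 19 in adipose tissue, and the difference was -0.19 ± 0.41 (95% interval -1.04 to 0.67). The sarcoglycan SGCD had 5, 5 and 6 reads in muscle and 0, 0 and 4 in adipose tissue (0.91 ± 0.42, adjusted p = 0.248 by limma). The groups did not overlap, but SGCD met the read minimum through muscle. Of the sarcoglycan SGCB there were 4, 3 and 1 reads in muscle and 1, 4 and 0 in adipose tissue (0.26 ± 0.42), all in the short exonic junction chr6:69544064-69544273 of 210 bases. For dystrobrevin DTNA, which also met the minimum through muscle, the counts were 3, 4 and 11 against 0, 4 and 0, with overlap (0.93 ± 0.45, adjusted p = 0.281 by limma). SNTB1 and SGCA had 3 and 2 reads in cattle muscle, each from 1 library, and none in adipose tissue.

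On the log2(RPM + 0.1) scale, the largest difference among the 14 genes belonged to ANK3. This gene encodes ankyrin-G, a protein that anchors channels and adhesion proteins in the membrane. In edgeR with TMM the log2 fold changes of ATP2A2 (6.86) and RYR1 (6.30), which had no adipose read, were above that of ANK3 (5.14). DESeq2 gave the same order (6.24, 5.64 and 5.35). ANK3 had 20, 38 and 28 reads in cattle muscle, through which it met the read minimum, and 0, 0 and 2 in adipose tissue. In RPM this was 0.737 ± 0.189 against 0.017 ± 0.030 (n = 3 each), a ratio of 41.9 over the group (exact 95% interval 11.3 to 352). The difference of 2.84 ± 0.41 had an adjusted p of 5.2e-05 by limma and passed under 15 of 16 alternatives, from 8.8e-09 to 0.0635. The exception was the removal of the leading junction of every gene, which leaves 28 of the 86 muscle reads. This junction, chr28:15837748-15848486 (minus strand, 10739 bases, of the mixed exon and intron type), had 10, 22 and 26 reads in muscle and none in adipose tissue, so it too met the read minimum through muscle alone. Its difference was 2.52 ± 0.38 (adjusted p = 0.00158 by limma). The next, chr28:15903351-15911877, had 5, 10 and 0 reads in muscle and likewise none in adipose tissue. Both adipose reads lay in another junction, chr28:15878423-15929918. SPTB, the erythroid and muscle beta-spectrin, had 2, 0 and 6 reads in muscle, all in chr10:77205674-77205936, and none in adipose tissue.

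For some genes, the reads of the 2 tissues lay in different junctions. At the level of single junctions, 16 junctions of 9 genes met the read minimum and 3 passed, those of ANK3 and ATP2A2 given above and chr7:69786276-69871465 of SGCD. None of these 3 had an adipose read, so each entered the test through muscle alone and their count is a description. Of all junctions tested, 5.53% were called higher in muscle and 0.887% higher in adipose tissue. The SGCD junction (85190 bases, plus strand) carried all of the gene's muscle reads, 5, 5 and 6, and had none in adipose tissue, where the 4 SGCD reads used the same start with another end, chr7:69786276-69940482. Its difference was 1.25 ± 0.33 with an adjusted p of 0.0396 by limma, but it passed under only 6 of 14 alternatives (0.00641 to 0.120) and under none of the 6 that leave out a library. In ITPR2, chr5:83639128-83640729 had 2, 12 and 6 reads in muscle and none in adipose tissue (1.33 ± 0.39, adjusted p = 0.0657 by limma, at least 6.50-fold higher), while chr5:83886025-83923312 had 0, 1 and 9 reads in muscle and 10, 7 and 14 in adipose tissue (-1.17 ± 0.47, adjusted p = 0.171 by limma). The former met the read minimum through muscle alone, so its entry into the test already implies a difference. The latter met it through adipose tissue, with 2 or more reads in only 1 muscle library. The former passed under 5 of 13 alternatives, edgeR and DESeq2 among them, with adjusted p-values from 0.0185 to 0.217. Another ITPR2 junction, chr5:83804664-83817184, had 23 reads in each tissue.

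PHKA1 gave a like pattern on fewer reads. Its 9 adipose reads, 4, 0 and 5, all crossed chrX:83135595-83145646, which had 0, 1 and 0 reads in muscle, and the other 9 muscle reads lay in 5 junctions. In UTRN, chr9:83248151-83265185 had 2 reads in each adipose library, through which alone it met the read minimum, and none in muscle (-0.62 ± 0.32, adjusted p = 0.327 by limma), and chr9:83287269-83306048 had 4, 3 and 0 reads in muscle and none in adipose tissue. UTRN was the most finely divided gene, with 74 muscle reads in 26 junctions and 85 adipose reads in 30, and its leading junction, chr9:83208595-83214714, held 10.8% and 16.5% of them. Whether junction use differs between tissues within a gene was not tested.

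**Figure D3:**
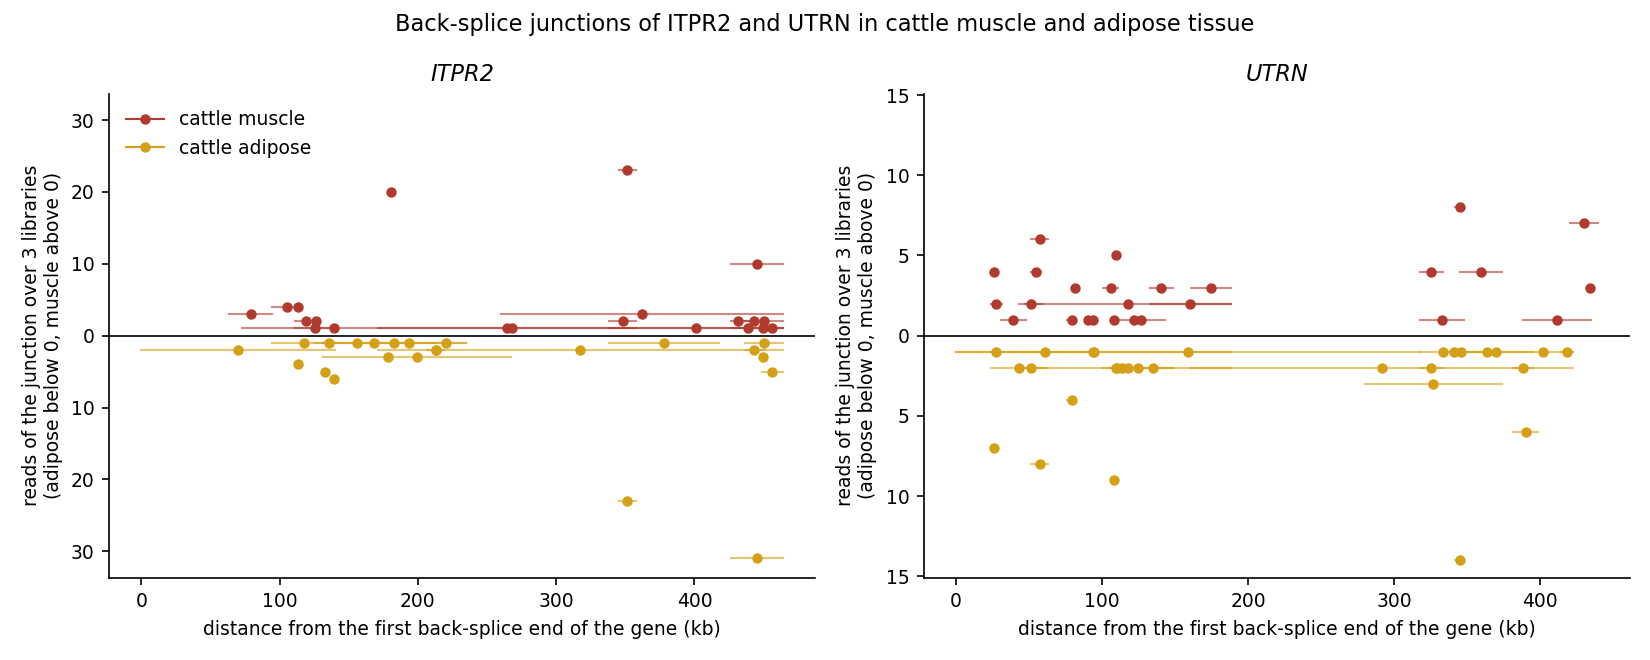
Junctions of ITPR2 and UTRN along each gene, with the distance in kb from the first back-splice end in the cattle table on the x axis and the reads over 3 libraries on the y axis (muscle above 0 in red, adipose tissue below 0 in yellow). Points mark the middle of a junction and lines its span. In ITPR2, the junction with 20 muscle reads has no adipose counterpart, and the junction with 31 adipose reads has 10 in muscle.

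Over all of these genes, 145 junctions had a cattle muscle read and 87 a cattle adipose read, and 37 had both, which is 25.5% of the former and 42.5% of the latter. Of all 18535 cattle junctions, 11998 had a muscle read and 11249 an adipose read. The share of muscle junctions also read in adipose tissue was therefore higher over all junctions than for these genes. By the same totals, the share of adipose junctions also read in muscle was similar over all junctions and for these genes. Exonic junctions made up 89.7% of the junctions of these genes in muscle and 95.4% of those in adipose tissue, against 87.3% and 88.6% of all junctions. The median span was 10052 bases in muscle and 16436 in adipose tissue, beside 9367 and 10543 for all junctions. A back-splice end shared with another junction of the same gene was found for 62.1% of the muscle and 77.0% of the adipose junctions, compared with 59.7% and 59.6% of all junctions that name a host. In CAMK2D, 6 junctions shared the end at position 13236840 of chromosome 6 with 30 muscle and 18 adipose reads, and in CACNB2 3 junctions shared the start at 33241757 of chromosome 13 with 20 and 11 reads. These figures describe the tables and were not tested.

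Of 65 other genes of the same pathways, 32 had a cattle junction and 15 met the read minimum. By limma, 3 were called higher in muscle, where 5.23% of all genes tested were, 0 were called higher in adipose tissue and 12 were not called. At an unadjusted p below 0.05, 4 were higher in muscle and 2 in adipose tissue by limma, beside the 11.3% and 6.42% of all genes. By adjusted p, edgeR with TMM called 4 and DESeq2 3 higher in muscle, beside 121 and 89 of all 1837 genes. Each called 0 of these 15 higher in adipose tissue. Reads in muscle alone were found for 8 of the 32 genes (25%), near the 22.1% of all host genes. LAMA2, the laminin chain that binds the dystrophin complex from outside, had 20, 46 and 29 reads in muscle and 2, 7 and 9 in adipose tissue (1.84 ± 0.43, adjusted p = 0.00778). HOMER1, a scaffold that binds release channels, had 9, 28 and 63 against 4, 6 and 8 (1.62 ± 0.49, adjusted p = 0.0483). ATP2A1, the SERCA1 pump of fast fibres, had 4, 6 and 14 reads in muscle and none in adipose tissue (1.54 ± 0.42, adjusted p = 0.0257), which is at least 7.80-fold higher, and it met the read minimum through muscle alone. Leaving out cattle muscle 2, cattle muscle 3 or cattle adipose 1 ended each of these calls, and leaving out cattle adipose 3, a pseudocount of 1 or no filter ended those of HOMER1 and ATP2A1. HOMER1 was also lost by share of junction reads (0.0734 by limma). Over all alternatives the adjusted p ran from 0.000568 to 0.0953 for LAMA2, from 0.000384 to 0.386 for HOMER1 and from 0.00340 to 0.216 for ATP2A1. The ryanodine receptor of the heart, RYR2, had 2, 2 and 4 reads in muscle and 4, 13 and 1 in adipose tissue (-0.43 ± 0.46). Cattle adipose 2 held 13 of its 18 adipose reads, and the same library held 16 of the 17 adipose reads of the smooth muscle marker MYH11, whose part in this value was not tested.

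Buffalo muscle and cattle muscle were set side by side to see whether the same genes give circRNAs in both species. They come from separate tables, buffalo reads were aligned to the cattle genome, and the buffalo libraries held fewer junction reads, so no test was made across them. In RPM, 69.8% of 1321 host genes were lower in every buffalo library than in every cattle library and 0.984% were higher, so shares of all junction reads are used below. Of the 37 genes, 22 had a read in buffalo muscle and 26 in cattle muscle, with 21 in both. Of the 14 that had at least 2 reads in at least 3 of the 6 muscle libraries, RYR1, ITPR1 and PHKA1 had a higher share in every buffalo library than in every cattle library, and ANK3, UTRN and CACNB2 a lower one. Among all 1321 host genes, 10.3% were higher and 26.2% lower in this way. No buffalo library had 2 reads of ANK3 or CACNB2 and only 1 had 2 or more of UTRN, so these 3 genes met the minimum through cattle muscle, while RYR1, ITPR1 and PHKA1 met it in both species. In RPM the picture was another one, with 0 of the 14 higher and 10 lower in every buffalo library, ITPR1 among the latter. RYR1 overlapped in RPM, with 0.106, 0.204 and 0.0833 in buffalo muscle and 0.159, 0.355 and 0.252 in cattle muscle, and PHKA1 overlapped as well.

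RYR1 had 7, 13 and 5 reads in buffalo muscle 1 to 3, or 0.112% to 0.212% of the junction reads, and 0.0389% to 0.0553% in cattle muscle. It held 25 of the 139 reads of the list in buffalo muscle, 13 of them in buffalo muscle 2. CACNA2D1 came next with 18, and without buffalo muscle 2 the order turned, with 15 reads for CACNA2D1 and 12 for RYR1. PHKA1 had 4, 4 and 2 reads in each species, out of 15890 junction reads in buffalo muscle and 64482 in cattle muscle. ITPR1 had 5, 3 and 4 reads in buffalo muscle, a share of 0.0490% to 0.0944% against 0.0183% to 0.0259%. ANK3 had 1 read in each buffalo library, 0.0163% to 0.0224%, and 0.128% to 0.140% in cattle muscle. Its main cattle junction had no buffalo muscle read. UTRN had 0, 3 and 1 reads in buffalo muscle, below the share in each cattle library, and CACNB2 had 1 read in all. CACNA2D1, with 5, 3 and 10 buffalo reads, ATP2A2, with 0, 6 and 1, and DYSF, with 3, 1 and 1, overlapped with cattle muscle in their shares. ITPR2 had 5, 2 and 4 buffalo reads and overlapped through cattle muscle 1. The sodium channel SCN4A had 1, 1 and 3 buffalo reads and 1, 0 and 0 cattle reads, and CAMK2B had 5 buffalo reads, all from buffalo muscle 2.

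**Figure D4:**
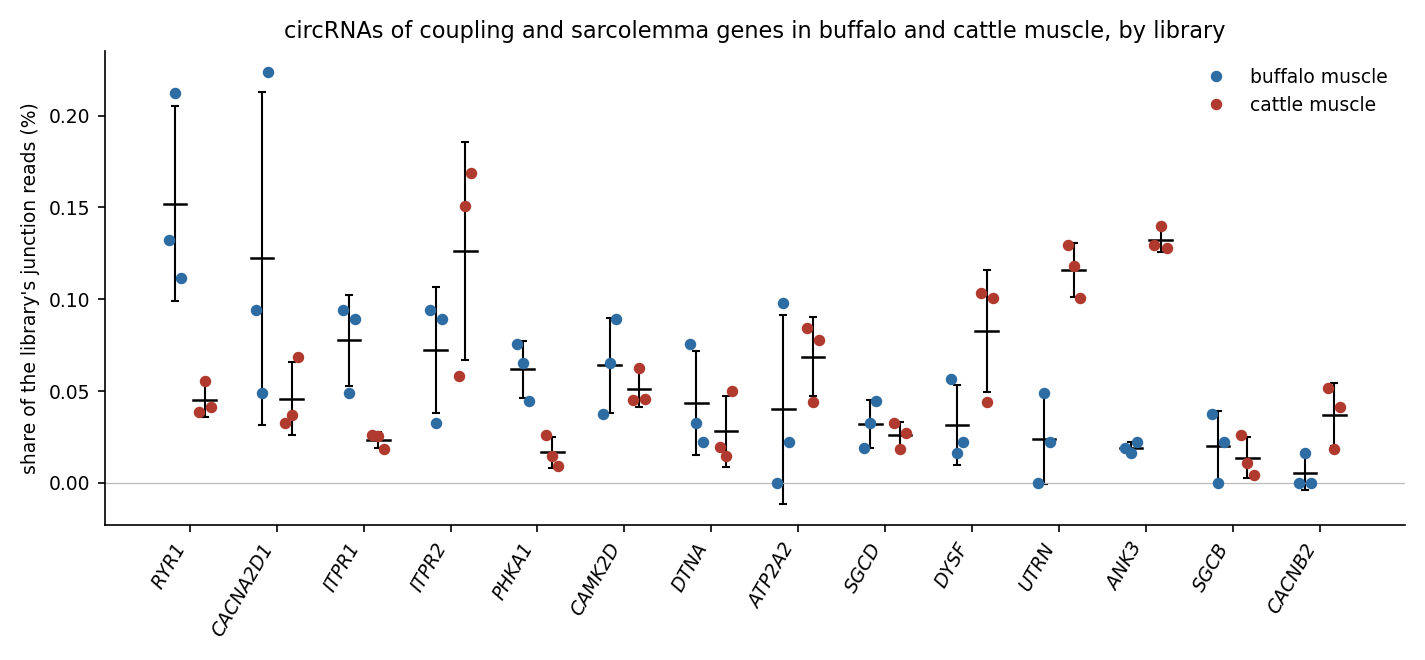
Share of each library's junction reads (%) held by 14 genes in buffalo muscle (blue) and cattle muscle (red), with a point for each library, with black lines for the mean and SD of 3 libraries. By share, RYR1, ITPR1 and PHKA1 are higher and ANK3, UTRN and CACNB2 lower in all 3 buffalo libraries, while in RPM 0 of the 14 genes are higher and 10 lower. Of all 1321 host genes, 10.3% are higher and 26.2% lower by share, and 0.984% and 69.8% in RPM.

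Of the 73 junctions of these genes with a buffalo muscle read, 35 had the same coordinates as a junction with a cattle muscle read, from 17 genes. This is 47.9% of the buffalo and 24.1% of the cattle junctions, and over all junctions the shares were 47.1% and 18.6%. The ATP2A2 junction on chromosome 17 was shared and carried all 7 buffalo reads. The SGCD junction of cattle muscle carried all 5 buffalo reads, 1, 2 and 2. The CAMK2D junction chr6:13213478-13236840 led in all groups, with 5 of 10 reads in buffalo muscle, 24 of 34 in cattle muscle and 17 of 20 in adipose tissue. For CACNA2D1, chr4:38807931-38828268 had 4, 1 and 1 reads in buffalo muscle and 3, 4 and 1 in cattle muscle. It led in buffalo muscle, while chr4:38811122-38828268 led in cattle muscle with 9 reads and had no buffalo muscle read. RYR1 differed. Its leading buffalo junction, chr18:48626142-48627676 (plus strand, exonic), had 5, 7 and 1 reads and no row with these coordinates in the cattle table, where 3 reads over the group would be 0.0259 RPM. The leading cattle junction of RYR1 had 1 buffalo read, and it was the only junction assigned to RYR1 alone that was read in both species. Rows listed under RYR1 together with a microRNA gene were left out of the counts. Of these, chr18:48588135-48598359 had 1 buffalo and 2 cattle muscle reads, and chr18:48592200-48598359 had 4 buffalo muscle reads and no row in the cattle table.

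The deposited mRNA values put these circRNA reads beside the messenger RNA of the same genes in buffalo muscle. A transcript was paired with a gene only where a circRNA table names both, which gave 33 transcripts of 27 genes, and the highest was used for each gene. Levels are FPKM, fragments scaled by transcript length and library size, so they can be compared between genes. All 27 genes were at or above a mean of 1 FPKM, 25 were at or above 10, and 9 at or above 100, with a median of 77.4. CAMK2D, at 78.8 FPKM by its highest transcript, passed 100 when its transcripts were summed. The median of all 19917 listed transcripts was 3.07, and that of the 5205 host genes paired in the same way was 8.82.

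CASQ1 was the highest, with 2424, 1945 and 2085 FPKM in buffalo muscle 1 to 3. ATP2A2 followed with 913, 1044 and 846, and RYR1 with 960, 680 and 848, and these 2 ranges overlap while CASQ1 lies above both. JPH1 (329, 246 and 224) and PHKA1 (273, 225 and 270) came next and overlapped with each other. STAC3, SNTB1 and CACNA2D1 lay between means of 159 and 180, and CACNB1 reached 115. A run of genes from SGCB (85.2) over SPTB, SGCD, CAMK2D and JPH2 to SCN4A (70.2) overlapped from neighbour to neighbour. DYSF varied most between libraries, with 70.3, 35.7 and 33.2 FPKM (a coefficient of variation of 44.7%), and buffalo muscle 1 was the high one. At the lower end were UTRN (22.4, 20.5 and 20.9), ITPR2 (a mean of 12.3), ITPR1 (8.28, 5.54 and 7.35) and CACNB2 (2.03, 1.33 and 1.11), none of which overlapped with its neighbour. Of the 26 neighbouring pairs in the order, 11 did not overlap.

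**Figure D5:**
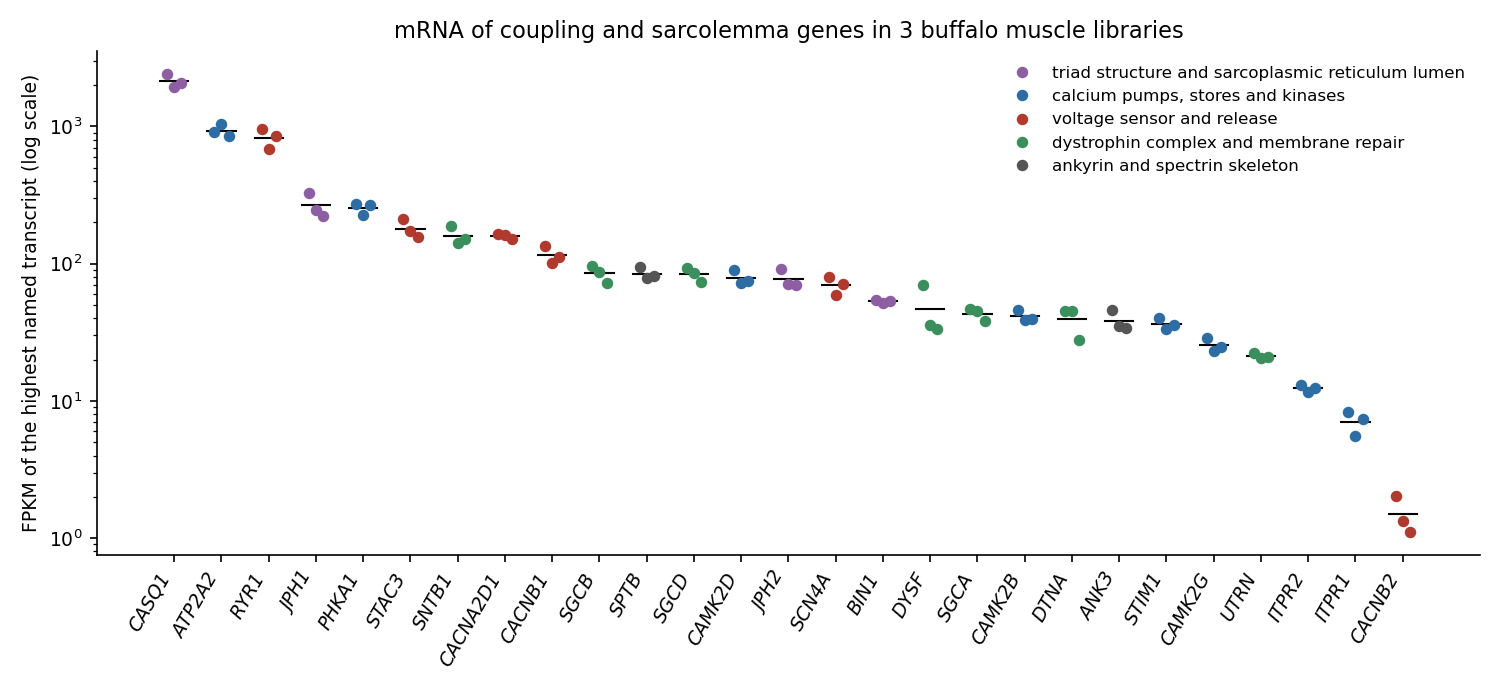
FPKM on a log axis of the highest paired transcript of 27 genes in the 3 buffalo muscle libraries, ordered by the mean (black line) and coloured by role. CASQ1 lies at 2152 FPKM on average and CACNB2 at 1.49.

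The order of the circRNAs was not that of the mRNAs. Of the 9 genes at or above 100 FPKM, 5 (CASQ1, JPH1, STAC3, SNTB1 and CACNB1) had at most 2 junction reads over the 3 buffalo muscle libraries. The rest were RYR1 (25 reads), CACNA2D1 (18), PHKA1 (10) and ATP2A2 (7), and RYR1 and CACNA2D1 held the most reads on the list. CASQ1 had none, which at 3 reads over the group allows up to 0.0158 RPM. ITPR1 and ITPR2, at 7.05 and 12.3 FPKM on average, had 12 and 11 junction reads, beside 7 for ATP2A2 at 934 FPKM. Junction reads are not scaled by length, so these counts order the reads and not the number of circles per transcript.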

How the data were processed

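RNA sequencing values of 9 libraries were used, 3 per group, grouped by the sample titles. Per the submitters' processing notes and the methods of the study, the authors trimmed reads with Trim Galore, aligned both species to cattle genome UMD3.1 with STAR and used Cufflinks 2.2.1 and Cuffdiff. Values deposited for mRNAs are FPKM per transcript. For circRNAs, the deposited unit is RPM for each back-splice junction and library, and the caller is not given in the sources used here. The lncRNA table was not used, nor were 6 buffalo adipose columns of the tables used.

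Every RPM value above 0 was a whole multiple of the smallest in its column (100% of values, tolerance 0.01), so the smallest was taken as 1 read, which gave reads and library sizes. Depth was low, and 33.7% to 61.9% of those detected in a library had 1 read. Junctions and sums per host symbol were compared between the cattle tissues with limma 3.58.1 (R 4.3.3) on log2(RPM + 0.1), two-sided, without a block. As alternatives, the recovered reads were tested with edgeR 4.0.16 and DESeq2 1.42.0. With TMM, edgeR called 163 of 1917 junctions and 161 of 1837 host genes. Rows naming a member beside another name (4) were left out. Scripts were tested on simulated data. Replicate numbers were checked as pairs (correlations of 0.0103 to 0.119 between equal numbers) and not taken as such, and p-values measure the spread between these libraries. Counting intervals are exact (Clopper-Pearson, 95%). The read depth behind an FPKM value is unknown.

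By the rule for naming, values are given in full for genes with at least 2 reads in at least 3 libraries of a group, with the leading and the called junctions, and called genes of the wider pathway. Junctions that share a back-splice end, genes with similar levels and the RYR1 junction of buffalo were described after their values were seen. The members, gene lists and tests were chosen with earlier results of these data known. Alternatives were another pseudocount (1), other filters, scaling by junction reads, the replicate block, the count tools and leaving out each library. Counting the 4 shared rows and removing each gene's leading junction were alternatives chosen after seeing the data.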

Additional observations from a re-analysis of the deposited data

How the results depend on the processing

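Few reads per gene limit these results. The 26 genes with a cattle junction held 576 reads in cattle muscle and 275 in adipose tissue, and 12 of them were too shallow to test. Leaving out each library gave 2 to 4 members called higher in muscle by host sum, the low value without cattle muscle 3. At the junction level it gave 2 to 3, and 2 in every case but the one without cattle muscle 1. With no filter 3 members passed by host sum, without DYSF. Without the leading junction of each gene (an alternative chosen after seeing the data) 2 members passed, with 28 calls higher in muscle and 11 in adipose tissue over all genes. A pseudocount of 1 also left 2 members, with 54 and 16 calls by host and 59 and 3 by junction. The cause was not tested. No alternative called a member higher in adipose tissue.

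Over all genes, leaving out a library gave 33 to 124 host sums called higher in muscle (the low value without cattle muscle 3) and 4 to 23 in adipose tissue, and for junctions 46 to 94 and 1 to 12, where the counts with all libraries were 96, 30, 106 and 17. Junctions higher in adipose tissue numbered 52 by share of junction reads, 27 by edgeR with TMM and 11 without TMM, and host sums higher in adipose tissue numbered 82 by share. With the replicate number as a block, 166 junctions were higher in muscle and 37 in adipose tissue, and 109 and 43 host sums. Under the block the ITPR2 junction with no adipose read, which met the read minimum through muscle alone, passed (adjusted p = 0.0240 by limma) and no other member call changed. Every muscle library correlated best with the adipose library of its own number, which is a hint from the data and not from the design.

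Genes near 0 changed sign in single settings, none of them past the threshold. ITPR1 ran from -0.33 to 0.0053 over the left-out libraries, ITPR2 from -0.74 to 0.14, UTRN from -0.43 to 0.033 and PHKA1 from -0.25 to 0.35, and PHKA1 was at -0.11 by share of junction reads and -0.015 in DESeq2. Of the junctions shared between species, 12 of 35 had at least 2 reads in both muscles, and 22 to 32 were left without 1 library, the low value without buffalo muscle 2. The ANK3 junction held 55.2% to 75.0% of the gene's muscle reads (55.2% without cattle muscle 3), and that of ATP2A2 88.0% to 100% (the high value without cattle muscle 2). All 27 mRNA levels stayed at or above 1 FPKM when each library was left out in turn, and 26 were at or above 5. Summing transcripts raised CAMK2D from 78.8 to 138 and DTNA from 39.5 to 61.5 FPKM. This takes CAMK2D past 100 FPKM, above CACNB1 and out of the run from SGCB to SCN4A.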
